A study of Mus musculus with 9 samples.

Results

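The genes described are 8 developmental members of the forkhead family in mouse embryonic stem cells (ESCs): *Foxa1*, *Foxc1*, *Foxd1*, *Foxd3*, *Foxe1*, *Foxf2*, *Foxj1* and *Foxq1*. They were chosen by name, and the rule used no methylation value, although earlier results of these data were known when the list was made. They are 8 of the 14278 protein-coding genes that lie in the part of the genome present in the tables of all 3 genotypes. Their CpG methylation was read at the transcription start site (TSS ± 1 kb), in the gene body and in the 10 kb upstream and downstream of the body.

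Whole genome bisulfite sequencing (WGBS) compared J1 ESCs of wild type (WT) genotype with J1 ESCs that lack *Dnmt3a* (*Dnmt3a* KO, here 3aKO) or *Dnmt3b* (*Dnmt3b* KO, here 3bKO), in order to separate what the 2 de novo DNA methyltransferases contribute. All 3 lines have the strain background 129S4/SvJae and were grown on gelatin in medium with fetal bovine serum and LIF. Each genotype was sequenced as 3 libraries, which the authors merged into 1 table, so each level is 1 pooled value without replicate error. No test across replicates was possible, and the intervals given cover counting error only. Bisulfite also leaves 5-hydroxymethylcytosine unconverted, so that a methylation level includes it.

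Forkhead proteins are transcription factors that bind DNA through a winged helix domain. FOXA1 opens chromatin in endoderm-derived tissues, FOXC1 and FOXF2 act in mesenchyme, FOXD1 in kidney stroma, FOXD3 in pluripotent and neural crest cells, FOXE1 in thyroid, FOXJ1 in motile cilia and FOXQ1 in epithelia. The starts of such genes often lie in CpG islands that stay free of methylation even where the gene is silent. Unmethylated regions that extend far beyond an island have been called canyons.

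In mm9 *Foxa1* lies at chr12:58641618-58647108 and *Foxj1* at chr11:116192018-116196713, both on the minus strand. The others lie on the plus strand: *Foxd3* at chr4:99322990-99325362, *Foxe1* at chr4:46356481-46359284, *Foxd1* at chr13:99124200-99126660, *Foxq1* at chr13:31650039-31652839, *Foxf2* at chr13:31717685-31723272 and *Foxc1* at chr13:31898515-31902504. Each has 1 annotated protein-coding isoform.

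All 8 starts were CpG-rich. The reference sequence held between 112 CpGs (*Foxj1*) and 171 CpGs (*Foxe1*) at TSS ± 1 kb, where the median of all genes was 65. The GC content of this window ranged from 58.2% in *Foxd1* to 65.6% in *Foxf2*. The observed over expected CpG ratio was lowest in *Foxj1*, at 0.623, and highest in *Foxd1*, at 0.891. The promoters of *Foxf2*, *Foxd3* and *Foxj1* are shown for the 250 bases before the TSS in mm9, because they belong to the gene with the lowest TSS level in 3aKO, the gene whose flanks kept the smallest share of their methylation in 3aKO, and the gene with the highest level at the TSS. They are written 5′ to 3′ in the direction of transcription, with CpGs in capitals.
*Foxf2* promoter, chr13:31717435-31717684, plus strand: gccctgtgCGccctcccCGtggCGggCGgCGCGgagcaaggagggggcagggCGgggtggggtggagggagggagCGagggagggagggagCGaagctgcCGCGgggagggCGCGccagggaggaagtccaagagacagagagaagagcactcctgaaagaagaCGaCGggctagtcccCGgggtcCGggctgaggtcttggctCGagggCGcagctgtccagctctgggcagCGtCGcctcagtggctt
*Foxd3* promoter, chr4:99322740-99322989, plus strand: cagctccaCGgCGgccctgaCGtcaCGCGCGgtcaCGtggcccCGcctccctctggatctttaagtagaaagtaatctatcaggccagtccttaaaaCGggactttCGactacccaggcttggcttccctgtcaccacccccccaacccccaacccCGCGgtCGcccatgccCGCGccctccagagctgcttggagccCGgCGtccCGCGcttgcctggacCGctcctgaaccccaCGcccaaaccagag
*Foxj1* promoter, chr11:116196714-116196963, minus strand: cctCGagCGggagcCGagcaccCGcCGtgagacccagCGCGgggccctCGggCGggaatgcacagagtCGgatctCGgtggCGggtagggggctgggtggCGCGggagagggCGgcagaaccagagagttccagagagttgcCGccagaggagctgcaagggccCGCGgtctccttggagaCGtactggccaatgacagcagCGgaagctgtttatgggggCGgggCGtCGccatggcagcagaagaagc

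These stretches hold 21, 21 and 23 CpGs, all of which had reads in every genotype. Mean methylation of the *Foxf2* promoter was 0% in WT, 1.59% in 3aKO and 1.56% in 3bKO ESCs. The *Foxd3* promoter had 0.397%, 2.29% and 0% in the same order. The *Foxj1* promoter had 0%, 1.49% and 0.502%. In WT no promoter of the 3 exceeded a mean of 0.397%, the *Foxj1* promoter included, and no single CpG in them exceeded 8.33%. None of these CpGs was called lower or higher in either KO, and a lower call was out of reach at such WT levels. The 3aKO means lay above WT in each promoter, with single CpGs at up to 33.3%. WT means this near to 0 leave little room below them. Over TSS ± 1 kb 3aKO was below WT in each of these genes. It had 0.212% against 1.36% in *Foxf2*, 0.803% against 3.58% in *Foxd3* and 4.67% against 21.1% in *Foxj1*.

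Further out, the flanks held methylated CpGs in WT. The next 4 sequences are the 300 bases in a flank of *Foxa1*, *Foxc1*, *Foxd3* and *Foxj1* that hold the most CpGs called lower in 3aKO ESCs and no annotated exon. They were chosen for that count, so their values describe them and are no test. A CpG was called lower or higher where the 95% credible interval of the difference in methylation lay beyond 0.2.
*Foxa1* downstream flank, chr12:58637718-58638017, minus strand: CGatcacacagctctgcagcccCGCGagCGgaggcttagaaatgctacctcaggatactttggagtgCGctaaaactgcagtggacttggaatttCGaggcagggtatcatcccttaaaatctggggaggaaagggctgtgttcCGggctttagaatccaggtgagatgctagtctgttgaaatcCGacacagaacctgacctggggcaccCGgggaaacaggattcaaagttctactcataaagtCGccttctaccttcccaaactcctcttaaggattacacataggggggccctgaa
*Foxc1* upstream flank, chr13:31894725-31895024, plus strand: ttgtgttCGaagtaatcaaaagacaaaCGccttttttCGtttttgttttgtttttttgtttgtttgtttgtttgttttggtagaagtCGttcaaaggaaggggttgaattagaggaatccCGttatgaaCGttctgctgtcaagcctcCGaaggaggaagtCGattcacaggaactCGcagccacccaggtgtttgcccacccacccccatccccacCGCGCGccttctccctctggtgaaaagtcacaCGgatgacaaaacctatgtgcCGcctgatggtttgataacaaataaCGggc
*Foxd3* downstream flank, chr4:99328823-99329122, plus strand: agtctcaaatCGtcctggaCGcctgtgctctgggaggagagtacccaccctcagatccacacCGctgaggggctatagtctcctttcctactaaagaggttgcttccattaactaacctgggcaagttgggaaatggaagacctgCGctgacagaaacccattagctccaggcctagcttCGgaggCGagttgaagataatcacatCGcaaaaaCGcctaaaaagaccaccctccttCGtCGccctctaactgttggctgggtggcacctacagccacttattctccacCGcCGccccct
*Foxj1* upstream flank, chr11:116205174-116205473, minus strand: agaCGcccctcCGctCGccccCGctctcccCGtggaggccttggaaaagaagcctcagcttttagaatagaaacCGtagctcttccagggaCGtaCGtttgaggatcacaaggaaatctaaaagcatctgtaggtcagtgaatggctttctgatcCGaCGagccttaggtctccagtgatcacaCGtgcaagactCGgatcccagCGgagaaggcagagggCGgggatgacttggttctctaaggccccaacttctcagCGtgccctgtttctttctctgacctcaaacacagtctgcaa

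The *Foxa1* stretch starts 9091 bp after the TSS and holds 10 CpGs, with a mean methylation of 70.3% in WT, 3.93% in 3aKO and 40.5% in 3bKO ESCs. All 10 were called lower in 3aKO and 3 in 3bKO. The *Foxc1* stretch ends at -3491 bp from the TSS and had 86.0%, 23.4% and 46.3% in the same order over 15 CpGs. The *Foxd3* stretch, 5833 bp after the TSS, had 81.8%, 7.07% and 63.6% over 12 CpGs, of which 11 were called lower in 3aKO and 1 in 3bKO. In the *Foxj1* stretch, which lies within the neighbouring gene *Rnf157*, 95.4%, 39.3% and 91.0% were measured over 15 CpGs. Single CpGs of the *Foxd3* stretch reached at most 35% in 3aKO, where the lowest CpG in WT had 66.7%.

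In the tables the KO of each gene was visible. In 3aKO ESCs 12 consecutive reference CpGs inside *Dnmt3a* had no read, against runs of at most 5 CpGs in the other genotypes, and in 3bKO ESCs 30 consecutive CpGs inside *Dnmt3b* had none, against 0 in the others. The median depth was 20 to 22 reads per CpG over the shared part and 17 to 18 reads over the 4747 CpGs of the 8 genes and their flanks. Of 5 genes that mark pluripotent cells, *Pou5f1*, *Sox2* and *Klf4* had less than 1% methylation at TSS ± 1 kb in every genotype. *Prdm14* had 30.6% in WT and *Esrrb* 94.1% at the annotated start used here, and promoter methylation does not measure expression.

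**Figure D1:**
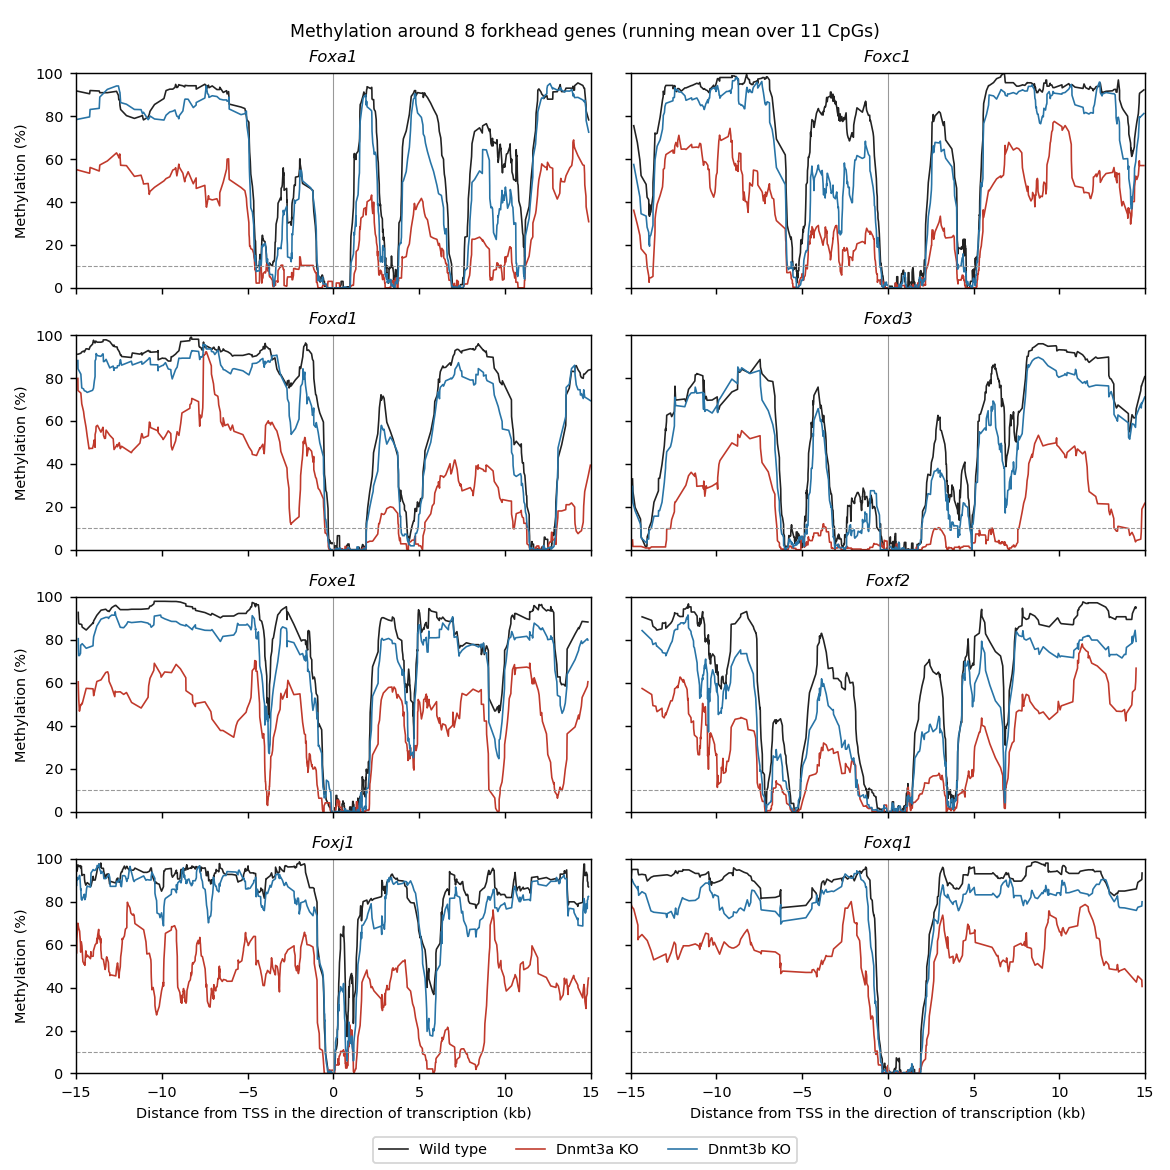
Methylation (%, running mean over 11 CpGs) against distance from the TSS in kb, in the direction of transcription, for the 8 genes in WT (black), 3aKO (red) and 3bKO (blue) ESCs, with 10% as a dashed line. All 3 curves are near 0 at the start of each gene, and the red curve runs lowest over most of the flanks, though not at every point. At *Foxd3* low runs in 3aKO cover 68.3% of the 10 kb on both sides of the TSS.

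The starts had little methylation to lose. At TSS ± 1 kb the median level of the 8 genes was 5.13% in WT, 1.43% in 3aKO and 3.21% in 3bKO ESCs. *Foxa1* was the lowest in WT, with 1.32%, followed by *Foxf2* with 1.36%, *Foxd3* with 3.58%, *Foxe1* with 5.01%, *Foxd1* with 5.25%, *Foxc1* with 6.39% and *Foxq1* with 7.13%. *Foxj1* stood apart with 21.1%.

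The Wilson intervals of the read shares in WT placed *Foxj1*, at 26.2% to 30.7%, above every other member. *Foxa1*, at 1.40% to 2.71%, and *Foxf2*, at 1.03% to 2.01%, could not be told apart, and neither could *Foxa1* and *Foxd3*, at 2.16% to 3.64%. The intervals also overlapped for *Foxd1*, at 4.38% to 6.01%, and *Foxe1*, at 3.81% to 5.69%, and for *Foxc1*, at 7.84% to 10.15%, and *Foxq1*, at 6.32% to 8.44%. By read share *Foxf2* was below *Foxa1* and *Foxc1* above *Foxq1*, the reverse of their order by the mean over CpGs. In *Foxj1* the kb after the TSS had 27.5% in WT, and the kb beyond it 51.5%.

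None of the 8 genes passed a drop of 20 percentage points at the TSS in either KO. All but *Foxj1* had a WT level under 20% there, so that this drop was out of their reach. This drop was passed by 40.9% of all genes in 3aKO and 2.51% in 3bKO ESCs, and the median difference over all genes was -12.3 and -3.73 percentage points. Among the members the median difference was -3.62 in 3aKO and -1.89 in 3bKO. *Foxj1* had the largest, with 4.67% in 3aKO and 15.5% in 3bKO, or -16.4 and -5.55 points.

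By the share of methylated reads, *Foxj1* differed from WT by -23.1 points in 3aKO, with an interval of -25.5 to -20.7. The interval of this difference lay below 0 in 8 of 8 genes for 3aKO and in 5 of 8 for 3bKO. By the mean over CpGs all 8 were lower in both KOs, as were 98.6% of all genes in 3aKO and 94.7% in 3bKO, so that the direction is that of the background. For 3bKO it held 0 in *Foxd3*, *Foxe1* and *Foxf2*, where a difference was not detectable at this depth. With at least 10 reads per CpG the difference in 3bKO turned to 0.663 points in *Foxa1* and 0.182 points in *Foxe1*.

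Relative to their own WT level, the starts kept a median of 24.2% of their methylation in 3aKO and 60.9% in 3bKO ESCs. Over all genes, whose median WT level of 17.8% was higher, the medians were 37.0% and 77.2%. In the kb after the TSS the 8 genes kept a median of 24.7% in 3aKO, and the genes with under 10% at the TSS in WT kept 25.8%. In the kb before the TSS the medians were 29.6% and 22.7%. *Foxj1* is among the 8 but was not under 10% at its TSS in WT. *Foxf2* kept the least in 3aKO, 15.6%, from 1.36% in WT to 0.212%. *Foxa1* kept 50.2%, from 1.32% to 0.663%. The ratio of such low levels rests on few methylated reads.

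Gene bodies fell into 2 kinds. *Foxc1*, *Foxd1*, *Foxd3*, *Foxe1* and *Foxq1* have a single exon in the annotation, and their bodies had 1.41% to 8.87% methylation in WT. *Foxa1* and *Foxf2*, with 2 exons each, had 28.3% and 17.7%, and *Foxj1*, with 3 exons, had 50.8%. The median of all genes was 80.1%, so that even the *Foxj1* body was far below it.

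The *Foxj1* body had 18.9% in 3aKO and 39.3% in 3bKO ESCs, a difference from WT of -31.9 and -11.5 points. *Foxa1* had 8.39% in 3aKO and 20.5% in 3bKO, or -19.9 and -7.76 points, and lay just short of the 20 points. *Foxf2* had 4.51% and 13.4%, or -13.2 and -4.34 points. Of the single-exon genes, *Foxc1* changed most, from 8.87% to 2.73% and 5.92%.

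Only *Foxj1* of the 8 bodies passed the drop of 20 points in 3aKO ESCs, and 0 did in 3bKO, where 89.3% and 1.19% of all genes passed it. By the mean over CpGs only the *Foxa1* and *Foxj1* bodies had over 20% in WT, so that the drop was out of reach for the others. By the share of methylated reads or with at least 10 reads per CpG, 2 bodies passed in 3aKO. The median body of the 8 genes kept 28.8% of its WT methylation in 3aKO and 69.6% in 3bKO, against 58.4% and 91.0% over all genes. These bodies are 2373 to 5588 bp long and include the kb after the TSS. Their median WT level was 7.72%, where that of all genes was 80.1%. The part that body length or WT level plays in the kept share was not tested. In *Foxd1*, with 1.41% in WT and 0.810% in 3bKO, the difference of the read shares was 0.155 points with an interval of -0.526 to 0.872, so that no difference could be detected.

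**Figure D2:**
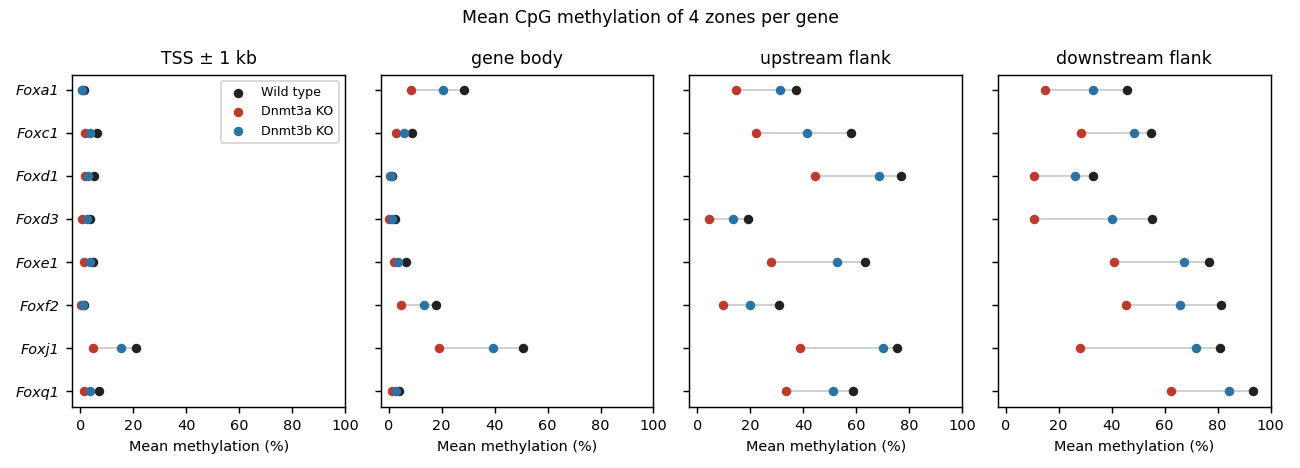
Mean CpG methylation (%) of the 8 genes at TSS ± 1 kb, in the body and in the 10 kb flanks, with 1 dot for each genotype. At TSS ± 1 kb all dots but those of *Foxj1* in WT and 3bKO lie under 8%, and in both flanks 3aKO lies lowest, 3bKO in between and WT highest for each gene.

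The flanks had larger differences than the starts. In the upstream 10 kb the WT level ranged from 19.2% in *Foxd3* to 76.9% in *Foxd1*, with a median of 58.4%, and in the downstream 10 kb from 32.8% in *Foxd1* to 93.3% in *Foxq1*, with a median of 66.0%. The medians of all genes were 73.0% and 87.8%. The difference between 3aKO and WT had a median of -28.7 points upstream and -33.3 points downstream, and in 3bKO of -7.88 and -9.11 points.

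Upstream, 7 of 8 genes passed the drop of 20 points in 3aKO ESCs, and downstream 8 of 8. Of all genes 89.2% passed it upstream and 92.9% downstream, so that these counts are near the background. In 3bKO 0 of 8 passed in either flank, where 0.392% and 0.470% of all genes did. The median differences of all genes were -31.3 and -33.7 points in 3aKO and -6.93 and -7.05 points in 3bKO.

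*Foxj1* had the largest differences on both sides in 3aKO ESCs. Upstream its difference in 3bKO was -5.33 points, the smallest of the 8, but -10.05 points by read shares, where that of *Foxd3*, -4.75, was the smallest. Its downstream flank had 80.8% in WT, 28.1% in 3aKO and 72.0% in 3bKO ESCs, and its upstream flank 75.6%, 38.9% and 70.3%. By read shares the downstream difference was -53.8 points in 3aKO (-55.8 to -51.8) and -12.5 in 3bKO (-14.5 to -10.6). A 5S ribosomal RNA gene copy, *n-R5s74*, is annotated in this flank. Most of the upstream flank of *Foxj1* lies within the neighbouring gene *Rnf157*.

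*Foxd3* kept the smallest part of both flanks in 3aKO. Downstream it had 55.3% in WT, 10.52% in 3aKO and 40.2% in 3bKO ESCs, and upstream 19.2%, 4.52% and 13.7%. It thus kept 19.0% of its downstream and 23.5% of its upstream methylation in 3aKO, where the medians of all genes were 58.0% and 55.0%. The upstream difference of -14.7 points was the one that did not pass 20 points, at a WT level of 19.2%.

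*Foxq1* kept the largest part of its downstream flank in both KOs. This flank had 93.3% in WT, 62.4% in 3aKO and 84.5% in 3bKO ESCs, and kept 66.9% and 90.6%. Its upstream flank had 58.8%, 33.6% and 51.4%, and kept 57.2% and 87.3%, where *Foxd1* kept 58.1% and 89.2% and *Foxj1* 51.4% and 92.95%. *A530084C06Rik*, on the opposite strand, overlaps the *Foxq1* start and the flank before it.

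*Foxf2*, *Foxd3* and *Foxc1* had the lowest kept shares in 3bKO ESCs upstream. The upstream flank of *Foxc1* had 58.0% in WT, 22.0% in 3aKO and 41.6% in 3bKO, and that of *Foxf2* 30.8%, 9.67% and 20.03%. They kept 71.6% and 65.0% in 3bKO, where the median of all genes was 89.7%. *Foxd3* kept 71.1% there. The downstream flank of *Foxf2*, with 81.2% in WT, had 45.3% in 3aKO and 65.7% in 3bKO, and that of *Foxc1*, which reaches into the 3′ end of *Gmds*, had 54.9%, 28.3% and 48.5%.

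The upstream flank of *Foxa1* had 37.5% in WT, 14.7% in 3aKO and 31.1% in 3bKO ESCs, and its downstream flank 45.8%, 15.0% and 33.0%. *Foxe1*, whose start is overlapped by the transcript *Gm12446* on the opposite strand, had 63.2%, 27.9% and 52.9% upstream and 76.7%, 40.8% and 67.3% downstream. *Foxd1* had the highest upstream level in WT, with 76.9%, 44.7% and 68.6%, and the lowest downstream level, with 32.8%, 10.6% and 26.3%. Its upstream flank kept 58.1% in 3aKO and its downstream flank 32.3%.

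3aKO was below 3bKO in both flanks and in the body of all 8 genes, and every interval of the difference of the read shares lay below 0. Of all genes 99.99% upstream, 99.98% downstream and 99.3% in the body were lower in 3aKO than in 3bKO, so that these counts are those of the background. The median difference between the KOs was -18.6 points upstream and -21.2 points downstream, against -23.7 and -26.3 over all genes. *Foxj1* had the largest, with -31.4 upstream and -43.9 downstream, and *Foxd3* the smallest upstream, with -9.15. At the TSS the interval lay below 0 in 6 of 8 genes. It held 0 in *Foxa1*, at -0.622 to 0.362, and in *Foxd1*, at -1.35 to 0.247. The differences from WT share 1 WT table, which the difference between the KOs does not use.

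**Figure D3:**
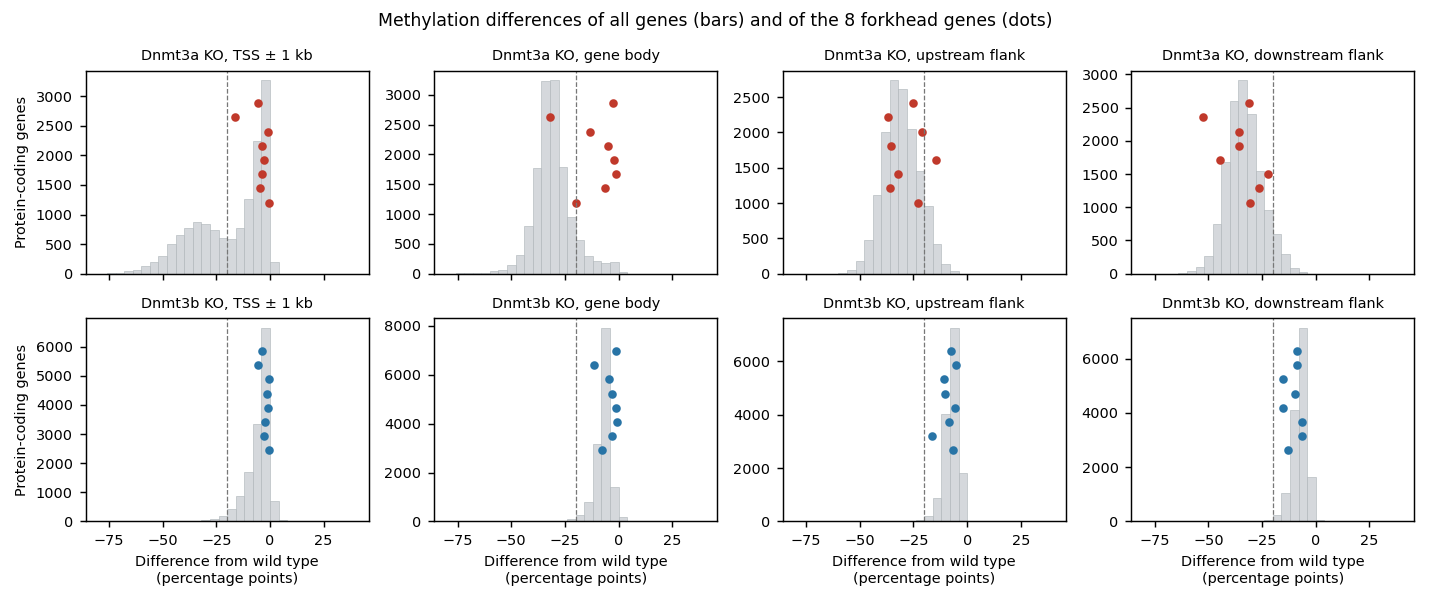
Differences in mean methylation from WT (percentage points) in 3aKO (upper row) and 3bKO (lower row) for all protein-coding genes as bars, which start at 0, and for the 8 forkhead genes as dots at arbitrary heights, with a dashed line at -20. In the flanks the dots in 3aKO reach from -14.7 to -52.6, and in the body 7 of 8 dots in 3aKO lie to the right of -20, while 89.3% of all genes lie to its left. Bodies other than those of *Foxa1* and *Foxj1* had under 20% in WT and could not reach -20.

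Called CpGs followed the zones. At TSS ± 1 kb 29 of 1139 CpGs of the 8 genes, 2.55%, were called lower in 3aKO than in WT, and in the bodies 121 of 1829, 6.62%. In the upstream flanks 403 of 1653 were called, 24.4%, and in the downstream flanks 417 of 1315, 31.7%. The share over all CpGs was 25.6%. A CpG with under 20% in WT could not be called lower. The median WT level was 5.13% at the TSS and 7.72% in bodies, so that many CpGs there were out of reach. In 3bKO 7 of 1141 CpGs were called lower at the TSS, 26 of 1869 in the bodies, 55 of 1646 upstream and 51 of 1317 downstream. The flank shares of 3.34% and 3.87% compare with 2.14% over all CpGs. These calls compare pooled reads and no replicates.

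The *Foxj1* downstream flank had the highest share, with 84 of 140 CpGs called lower in 3aKO, 60%, and 7 of 140 in 3bKO. The *Foxd3* downstream flank followed with 86 of 196, 43.9%, and 12 of 195. *Foxa1* and *Foxf2*, with 1.32% and 1.36% at TSS ± 1 kb in WT, had 0 called CpGs there in either KO. Between the KOs, 243 of 1657 upstream and 234 of 1312 downstream CpGs were called lower in 3aKO than in 3bKO, 14.7% and 17.8%, where 16.8% of all CpGs were.

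A gain of methylation was called at 5 CpGs of the 8 genes and their flanks, of which 1 was called with at least 10 reads per CpG and 0 with a 99% interval. In 3bKO they were 4 of 4832, 0.0828%, where 0.0690% of all CpGs were called higher. Both neighbouring CpGs at -811 and -805 bp from the *Foxd3* TSS had 8 methylated of 9 reads in 3bKO, and 0 of 4 and 0 of 6 reads in WT. A CpG 2962 bp into *Foxa1* had 4 of 5 reads methylated in 3bKO and 0 of 16 in WT, and a CpG at -9485 bp from the *Foxd1* TSS had 35 of 36 and 10 of 19. In 3aKO the only such CpG lay at -4261 bp from the *Foxa1* TSS, with 7 of 10 reads methylated and 0 of 9 in WT. It was 1 of 4797 CpGs, 0.0208%, where 0.00703% of all CpGs were called higher in 3aKO.

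The low stretch around each TSS was measured as the run of CpGs whose running mean over 5 CpGs stayed under 10%. In WT it was 2014 bp long at *Foxa1*, 1022 bp at *Foxq1*, 985 bp at *Foxf2*, 915 bp at *Foxd3*, 829 bp at *Foxc1*, 694 bp at *Foxe1*, 600 bp at *Foxj1* and 590 bp at *Foxd1*. In 3aKO ESCs it ranged from 1219 bp at *Foxj1* to 6252 bp at *Foxd3*, and in 3bKO from 606 bp at *Foxj1* to 2669 bp at *Foxd3*. At least 2 times the WT length was reached by 7 of 8 genes in 3aKO, all but *Foxa1*, and by 5 of 8 in 3bKO, where 31.3% and 12.2% of the 8800 genes with a WT stretch of any length did, a background added after the data were seen. Over 11 CpGs it was reached by 1 of 8 in 3aKO and 0 of 8 in 3bKO. No WT stretch of the 8 genes reached 3.5 kb, the minimum length of a canyon in the study. The study's canyons were found with a Hidden Markov Model, so that this run does not tell whether a gene lies in one.

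Of the 8 genes, 2 had a WT stretch of at least 1 kb, the minimum set for the background of 4344 genes, in which 11.7% reached 2 times the length in 3aKO and 1.77% in 3bKO. *Foxq1* did so in both KOs, with 2854 and 2517 bp, and *Foxa1* in neither, with 2368 and 2097 bp. The *Foxa1* stretch in 3aKO was 5161 bp long with at least 10 reads per CpG, 5887 bp over 11 CpGs with 10 reads and 5721 bp under a limit of 20%. These lengths were 3.18, 3.801 and 2.75 times WT, so that the stretch passed 2 times WT and 3.5 kb in these settings. With at least 10 reads per CpG it rested on 43 CpGs in WT and 89 in 3aKO, in place of 112 and 122.

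Most of this lengthening depended on the width of the running mean. With a mean over 11 CpGs the WT stretch was 1944 to 2519 bp long in 7 genes and 568 bp in *Foxj1*. The median ratio to WT then was 1.35 in 3aKO and 1.01 in 3bKO, in place of 3.08 and 2.45. Only *Foxd3* reached 2 times its WT length in 3aKO, and 0 genes did in 3bKO, where 28.3% and 6.61% of 8623 genes did.

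Few CpGs were methylated between the ends of these stretches. Between the ends of the WT stretch over 5 CpGs and the one over 11 CpGs lay 982 CpGs of 6 genes, of which 35 had more than 20% methylation in WT, 13 of them with fewer than 10 reads. In each KO 8 of these CpGs had more than 20%. At *Foxc1* there were 13 such CpGs of 179 in WT, 3 in 3aKO and 2 in 3bKO, and at *Foxe1* 10 of 199 in WT, 3 and 2.

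*Foxd3* was at least 2 times as long in 3aKO under each width, with a ratio of 6.57 over 3 CpGs, 6.83 over 5 CpGs and 2.75 over 11 CpGs. Over 11 CpGs its stretch was 2366 bp in WT, from -409 to 1956 bp from the TSS, and 2418 bp in 3bKO. In 3aKO it was 6506 bp, from -3590 to 2915 bp from the TSS, and so passed 3.5 kb, which it did not over 3 CpGs, with 2872 bp. Under a limit of 20% it was 2824 bp in WT and 14238 bp in 3aKO. *Foxj1* had 568, 1012 and 553 bp over 11 CpGs in WT, 3aKO and 3bKO. *Foxf2* was the only gene longer in 3bKO than in 3aKO there, with 3187 against 2790 bp. *Foxe1* was not stable: its ratio in 3aKO was 3.20 over 5 CpGs, 1.36 over 11 CpGs and 0.739 by the share of methylated reads.

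**Figure D4:**
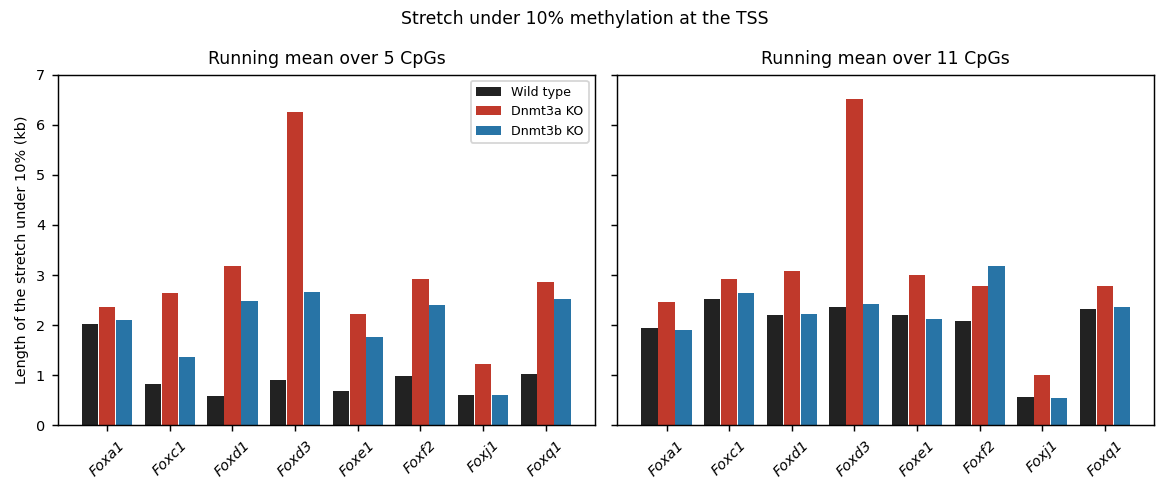
Length in kb of the stretch under 10% at the TSS of each gene in WT, 3aKO and 3bKO ESCs, with a running mean over 5 CpGs (left) and over 11 CpGs (right). The WT bars rise to between 2074 and 2519 bp in 6 genes when the mean is widened, while *Foxd3* in 3aKO stays above 6 kb in both.

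The 2 kb outside the WT stretch was read as the edge. Around the WT stretch over 5 CpGs, which often ends inside the island, the median level was 13.5% in WT, 4.45% in 3aKO and 8.79% in 3bKO ESCs. Around the WT stretch over 11 CpGs, an alternative added after the data were seen, it was 52.8%, 16.1% and 38.6%, a median difference of -33.0 and -12.8 points. *Foxc1* had the largest difference there in both KOs, with 55.7% in WT, 14.6% in 3aKO and 39.2% in 3bKO. *Foxd3* had 26.7%, 1.71% and 16.9%. Between the KOs the edge difference ranged from -7.52 points at *Foxf2* to -26.9 at *Foxa1*. Because the edges were found in WT, the comparison of the KOs is the one that their choice does not touch.

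Distance from the stretch was then followed outwards. In the first kb outside the WT stretch the 8 genes kept a median of 29.1% of their WT methylation in 3aKO and 70.0% in 3bKO ESCs, close to the 26.9% and 67.7% of 5304 genes with under 10% at the TSS in WT. *Foxj1*, with 21.1% there, is among the 8 though it does not meet this limit. From 1 to 2 kb the median was 35.7% against 47.8% in 3aKO, and from 2 to 3 kb 29.997% against 52.6%. In 3bKO the members kept 70.1% from 2 to 3 kb, against 90.3%. From 10 to 20 kb the values were 56.4% against 56.9% in 3aKO and 90.4% against 91.1% in 3bKO.

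The WT level moved with this. From 2 to 3 kb outside the stretch the median WT level of the 8 genes was 32.8%, where that of the other genes was 89.3%, and *Foxd3*, *Foxa1* and *Foxf2* had 12.2%, 14.1% and 20.9%. *Foxe1*, *Foxj1* and *Foxq1*, with 72.3%, 88.7% and 91.6% in WT, kept 53.6%, 48.5% and 70.4% in 3aKO. *Foxd3*, *Foxa1* and *Foxf2* kept 6.80%, 22.0% and 28.6%. *Foxc1* and *Foxd1*, with 32.7% and 32.9% in WT, kept 19.7% and 31.4%, so that the kept share did not follow the WT level in every gene. The part that the WT level or the CpG density plays in the kept share was not tested.

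**Figure D5:**
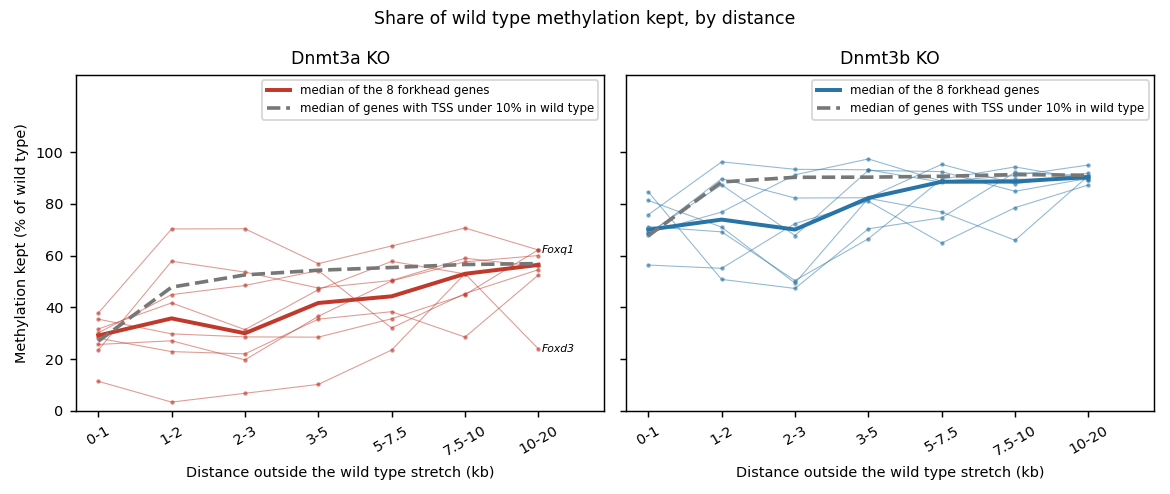
Methylation kept in 3aKO (left) and 3bKO (right), as % of the WT level, in bins of distance outside the WT stretch over 11 CpGs. Thin lines are the 8 genes, the thick line is their median and the dashed line the median of 5289 to 5304 other genes with under 10% at the TSS in WT. *Foxj1* is among the 8 but was not under 10%. The medians lie together in the first bin and in the last, and the members are lower in between.

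Low runs away from the TSS were counted within 10 kb of it, as runs of at least 300 bp under 10% over 11 CpGs. In WT there were 7 of them, in 3bKO 12 and in 3aKO 18. Of the 18, 5 overlapped a run of WT and 13 did not, and the latter had a median WT level of 36.5%. They were found for being low in 3aKO and not in WT, so that this level describes them and is no test. With the run at the TSS, low runs covered 12.6% of the 8 windows in WT, 28.8% in 3aKO and 16.7% in 3bKO. The median of the 8 genes was 12.5%, 24.8% and 17.98%, against 7.04%, 11.6% and 8.24% in 5305 other genes with under 10% at the TSS in WT. *Foxj1*, with 21.1% at its TSS in WT, is among the 8 but does not meet that limit.

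*Foxd3* was covered most, with 21.1% of its window in WT, 68.3% in 3aKO and 27.3% in 3bKO ESCs. In 3aKO its runs spanned from -6445 to 7622 bp from the TSS with short gaps, and the run from 6122 to 7622 bp after the TSS had 62.1% methylation in WT, 2.69% in 3aKO and 39.0% in 3bKO. Of the 5305 other genes 8, or 0.151%, had as large a share in 3aKO, whereas 2.70% had as large a share as *Foxd3* in WT. The long noncoding transcripts *Gm12688* and *Gm12682* are annotated in its upstream and downstream flank.

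*Foxa1* had 2 low runs in WT and 6 in 3aKO within this distance, and its covered share went from 13.3% to 35.5%. The run from 2644 to 4000 bp after the TSS, mostly in exon 2 and partly in the intron before it, had 14.9% in WT, 2.63% in 3aKO and 7.70% in 3bKO. *Foxf2* went from 15.1% to 32.6%, with runs upstream, in intron 1 and at the TSS. *Foxj1* had no run but that at its TSS in WT and 3bKO, and 3 runs in 3aKO. The one 7751 bp after the TSS had 78.7% in WT and 4.14% in 3aKO over 11 CpGs. *Foxq1* had 1 run in each genotype, and covered 11.6%, 13.9% and 11.8%.

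*Foxq1*, *Foxf2* and *Foxc1* lie in this order on chromosome 13, with 64845 bp between the first pair and 175242 bp between *Foxf2* and *Foxc1*. More than 10 kb from the genes, the first interval had 91.6% methylation in WT, 59.7% in 3aKO and 83.3% in 3bKO ESCs over 498 CpGs. The second had 90.1%, 53.7% and 83.5% over 1285 CpGs. The 3 genes thus share a surrounding of like levels, whereas their flanks ranged from 30.8% to 93.3% in WT. Genes with under 10% at the TSS in WT had medians of 88.0%, 49.1% and 80.1% from 10 to 20 kb outside the WT stretch. The WT and 3bKO levels of the surrounding are thus near this background, and those in 3aKO somewhat above it. The transcripts *Gm11377* and *1700018A04Rik* overlap the flank after *Foxq1*, *Gm11378* lies before *Foxf2* and *Gm11379* before *Foxc1*.

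Other forkhead genes were read in the same way. Of 25 symbols listed as developmental, 11 genes could be compared with WT, and of 12 listed as broadly expressed, 7. All 11 developmental genes passed the drop of 20 points upstream in 3aKO and 8 of 11 downstream, where 89.2% and 92.9% of all genes did, and 0 did in 3bKO. In 3aKO 4 of 11 passed in the body and 3 of 11 at TSS ± 1 kb, where 89.3% and 40.9% of all genes did. The rest of the 11 had WT levels under 20% in these zones, so that the drop was out of their reach. Of the 7 broadly expressed genes 6 passed upstream, 6 downstream, 7 in the body and 2 at TSS ± 1 kb in 3aKO. The other 5 had under 10% at the TSS in WT. In the body the median difference of these 7 genes was -33.2 points, against -5.91 in the other developmental genes and -5.44 in the 8 members.

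Among the other developmental genes *Foxb2* had a stretch of 2211 bp over 5 CpGs and 3110 bp over 11 CpGs in WT. In 3aKO it had 4924 and 5016 bp, and in 3bKO 3466 and 4783 bp. *Foxn1* and *Foxi1*, factors of thymus and inner ear, had the highest TSS levels in WT, 93.7% and 90.9%, and 68.2% and 58.3% in 3aKO. *Foxe3* and *Foxa2* had the largest ratios over 5 CpGs, from WT stretches of 7 and 91 bp. Over 11 CpGs they had 2 and 91 bp in WT, 1222 and 3227 bp in 3aKO, and nearly as much in 3bKO, 1214 and 3013 bp.

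Of the broadly expressed genes *Foxo3* and *Foxo1* had the longest stretches in WT over 5 CpGs, with 2929 and 2687 bp, and 5513 and 4069 bp in 3aKO. *Foxn3* and *Foxk2* had TSS levels of 88.4% and 86.2% at the annotated start of the longest isoform. *Foxp4* had the largest ratio in 3aKO, with 2302 bp in WT and 7284 bp, followed by *Foxo3*. In 3bKO *Foxp4* and *Foxo3* were shorter than in WT over 5 CpGs, with 1678 and 2231 bp. Over 11 CpGs *Foxp4* had 3283 bp in WT, 8979 bp in 3aKO and 4593 bp in 3bKO, and *Foxo3* had 4477, 5381 and 4812 bp.

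The genes outside the family whose levels lay nearest to the median of the 8 genes were *2310001K24Rik*, *Gm17509*, *Fbxl15*, *Tlx3* and *Nkx2-1*. Likeness was the Euclidean distance over 12 values, 4 zones in 3 genotypes, among 13734 genes, and these 5 lay at 10.1 to 12.4 percentage points. *Tlx3* and *Nkx2-1* encode homeobox transcription factors. *Nkx2-1*, known in thyroid and lung, had 52.5% in its upstream flank in WT, 29.8% in 3aKO and 40.4% in 3bKO ESCs. The 8 genes themselves lay at 15.3 (*Foxc1*) to 72.3 (*Foxj1*), so that each of them was farther from their median than these 5 genes.

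Both strands gave like values. Over the 8 downstream flanks the plus and minus strand had 64.9% and 64.9% methylated reads in WT, 27.8% and 28.0% in 3aKO and 55.6% and 56.1% in 3bKO ESCs. The strands were apart by at most 2.90 points, in the upstream flanks of 3aKO, with 26.0% and 23.1%.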

How the data were processed

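WGBS of J1 ESCs was analysed in 3 genotypes with 3 libraries each, 9 libraries in all, which the authors had merged into 1 table per genotype. Per the submitters' notes and the study's methods, BSMAP served for alignment (mm9), BSeQC took out end-repair bases, clonal reads and 1 segment of overlapping mates, and the mCall module of MOABS counted reads. The deposited counts are all reads and methylated reads per CpG and are not normalized. The deposited methylation ratio is a fraction, the methylated reads divided by all reads, and the level of a CpG was recomputed from the counts. The tables hold 13882752 CpGs in WT, 20688369 in 3aKO and 20699170 in 3bKO ESCs, of which 1 incomplete row of WT was left out. The WT table holds 13 whole chromosomes, among them 11, 12 and 13, and chromosome 4 up to position 140865857. Chromosomes 5 to 9, X and the rest of chromosome 4 are not used here for WT.

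Genes and exons came from GENCODE M1, which is on mm9 as the tables are, with the longest protein-coding isoform of each gene. Zone levels are means over CpGs covered by 3 or more reads in each genotype, and genes of the background had at least 5 such CpGs in a zone. The stretch under 10% holds the CpG nearest to the TSS, or the nearest low CpG within 500 bp. CpG calls used Beta posteriors with a uniform prior and counts scaled down to 200 reads. Shares of reads have 95% Wilson intervals, and differences have intervals formed from them. Reads over neighbouring CpGs are not independent, so that these intervals are too narrow. The scripts were tested on simulated data.

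The 8 genes, the lists of other forkhead genes and the tests were chosen with earlier results of these data known. The genes named are the 8 members, their neighbours, the 5 nearest genes, and in each list of other forkhead genes the 2 with the longest WT stretch, the 2 with the highest TSS level in WT and the 2 with the largest ratio of 3aKO to WT length. A gene that this rule names is not reported here. The genes named in the closing section were chosen after their values were seen. The tools were Python 3.11.15, NumPy 2.4.6, SciPy 1.17.1, numba 0.67.0 and matplotlib 3.10.9, and samtools 1.23.1 read the sequences. Other settings were tried for the read minimum, read weighting, the window and limit of the stretch, the level of the credible interval and the edges, and 3 were chosen after seeing the data.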

Additional observations from a re-analysis of the deposited data

How the results depend on the processing

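No paired analysis was possible because the tables are pooled over the libraries of each genotype, and for the same reason no replicate could be left out. The most 5′ start could change nothing, because each of the 8 genes has 1 annotated protein-coding isoform. A break at gaps over 1 kb left every stretch of the 8 genes as it was. With at least 10 reads per CpG the median differences from WT were -4.82 (3aKO) and -2.40 (3bKO) at the TSS, -12.2 and -5.11 in bodies and -30.3 and -9.29 upstream, and between the KOs -7.03 in bodies, -19.6 upstream and -23.2 downstream; 2 bodies passed 20 points in 3aKO. By shares of methylated reads they were -7.78 and -4.49 in bodies and -31.7 and -9.65 upstream, and between the KOs -1.36 at the TSS, -3.36 in bodies, -21.6 upstream and -27.0 downstream, where 1 start and 2 bodies passed 20 points in 3aKO and 5 upstream flanks between the KOs. Without 1 kb around the TSS the upstream medians were -35.0 in 3aKO and -24.8 between the KOs, with 6 flanks past 20 points. In the main setting 3 upstream flanks passed 20 points between the KOs, where the median difference of all genes was -23.7. Shares of all genes past 20 points were not counted between the KOs or under these settings, so that these counts have no background beside them.

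The median ratio of stretch length in 3aKO was 1.46 under a limit of 20%, 1.35 over 11 CpGs and 1.40 over 11 CpGs with 10 reads, a setting chosen after seeing the data, and in 3bKO 1.04, 1.01 and 1.01, and 1.11 with 10 reads. The genes at 2 times WT in 3aKO were 3 under 20%, 1 over 11 CpGs, 3 over 11 CpGs with 10 reads and 4 over 3 CpGs, with 10 reads or by read shares, and in 3bKO 0 under 20%, over 11 CpGs, with 10 reads and with both. Of all genes 33.8% were at 2 times WT in 3aKO under 20%, 28.3% over 11 CpGs, 31.95% over 11 CpGs with 10 reads, 37.0% over 3 CpGs, 31.4% with 10 reads and 32.2% by read shares, and in 3bKO 6.59% under 20%, 6.61% over 11 CpGs, 10.7% with 10 reads and 8.29% with both. Ratios under 1 were found for *Foxe1* in 3aKO over 3 CpGs (0.857) and by read shares (0.739), for *Foxe1* in 3bKO with 10 reads (0.0562), over 11 CpGs with 10 reads (0.875), under 20% (0.959) and over 11 CpGs (0.963), for *Foxd3* in 3bKO under 20% (0.956), for *Foxq1* in 3bKO by read shares (0.798), for *Foxj1* in 3bKO under 20% (0.9495), over 11 CpGs (0.974) and with 10 reads there (0.994), and for *Foxa1* in 3bKO by read shares (0.936), over 11 CpGs (0.977) and with 10 reads there (0.982). At the TSS in 3bKO *Foxa1* turned to 0.663 and *Foxe1* to 0.182 with 10 reads, and *Foxa1* between the KOs to -1.10 with 10 reads and -0.120 by read shares. The *Foxd1* body turned to 0.155 in 3bKO by read shares. The edge medians were -28.8, -12.4 and -18.0 (3aKO, 3bKO and between the KOs) around the 3bKO stretch and -33.0, -12.8 and -20.7 around the WT stretch over 11 CpGs. Lower CpGs numbered 1549 in 3aKO by Fisher's exact test (32.3%, against 48.6% of all CpGs) and 941 in the report's test (19.6%, against 25.6%). With a 99% interval they numbered 64 in 3bKO (1.32%, against 1.01%) and 328 between the KOs (6.78%, against 10.1%). In the report's test the latter were 132 (2.73%, against 2.14%) and 553 (11.4%, against 16.8%). The cause of these changes was not tested.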

Other observations

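On chromosomes outside the WT table, 17 other forkhead genes were read in both KOs. 3aKO was below 3bKO in both flanks of 17 of 17, in the body of 16 and at TSS ± 1 kb of 15. In the part with a WT table, 99.99% of all genes upstream, 99.98% downstream, 99.3% in the body and 95.2% at the TSS were lower in 3aKO than in 3bKO, so that these counts are near the background. The medians were 20.9% against 37.1% upstream, 44.8% against 76.6% downstream, 37.9% against 64.2% in the body and 1.17% against 3.03% at the TSS. *Foxf1a* and *Foxc2*, which like *Foxf2* and *Foxc1* are neighbours, had 11.3% and 15.7% upstream in 3aKO and 17.0% and 26.8% in 3bKO ESCs. *Foxb1* had 4.71% upstream in 3aKO and 17.3% in 3bKO, and a stretch over 11 CpGs of 5608 and 3316 bp. *Foxr1* had 17.7% and 46.3% at its TSS, and *Foxp3*, on the X chromosome, 62.5% and 86.3%. *Foxc2* and *Foxo4* were the genes with a higher TSS level in 3aKO, with 2.18% against 1.69% and 0.698% against 0.204%. These levels have no WT value beside them.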
